A study of Mus musculus with 12 samples.

Results

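Dense core granules hold the peptide hormones of endocrine cells until a stimulus releases them. The transcripts of 9 genes that build and prime these granules, *Chga*, *Chgb*, *Scg2*, *Scg3*, *Vgf*, *Ptprn*, *Ptprn2*, *Cadps* and *Cadps2*, were followed in sorted corticotrophs, the anterior pituitary cells that make ACTH. They were chosen by gene symbol, are 9 of the 55304 genes in the table, and all passed the filter on low values that left 24736 genes for testing. The cells of all groups came from adult male *Pomc*-eGFP mice on a C57Bl6/J background, in which the *Pomc* promoter drives the fluorescent protein used for the sort. Control mice (group A) drank plain water. Group B drank dexamethasone (DEX), a synthetic glucocorticoid, at 2.5 µg/ml for 4 weeks. Groups C and D had the same 4 weeks of DEX and were then left without it for 7 days (1 week following withdrawal) or 28 days (4 weeks following withdrawal). Each group had 3 libraries, each made from 1 pool of pituitaries of mice that shared a cage, so that the spread below is between pools and not between mice.

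Granins are acidic proteins that aggregate in the late Golgi and help to gather hormones into granules, and several are cut into active peptides. *Ptprn* and *Ptprn2* encode phosphatase-like proteins that span the granule membrane, and the products of *Cadps* and *Cadps2* prime docked granules for calcium-triggered release. In corticotrophs these granules carry ACTH, which is cut from the product of *Pomc*, and glucocorticoids restrain both its synthesis and its release. Other hormone cells of the pituitary use the same granins.

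The libraries had 7719894 to 12848078 reads on genes, and no member fell below 43 reads in any of them. *Pomc* was lowest in the DEX pools, with normalised counts (counts scaled to the effective size of each library, as CPM) of 4362, 8521 and 4241 against 74260.1, 34562 and 74221 in control, 149459, 284740.0 and 43612 at 1 week and 49562, 48189 and 80216 at 4 weeks following withdrawal. All 6 corticotroph markers were detected in every group, but they did not all move as *Pomc* did. *Tbx19*, the corticotroph lineage factor, had 769, 498 and 1490.0 normalised counts under DEX against 459, 229 and 218 in control, 282, 385 and 39.5 at 1 week and 166, 94.4 and 188 at 4 weeks. *Avpr1b*, the vasopressin receptor of corticotrophs, had 103, 67.9 and 130.1 under DEX against 60.0, 25.6 and 12.1 in control, 40.0, 36.7 and 1.56 at 1 week and 14.2, 9.30 and 24.5 at 4 weeks. Both were higher in all 3 DEX pools than in every other library, and pool 3 at 1 week had the lowest *Tbx19*, *Avpr1b* and *Crhr1* (12.5) of the 12. *Gh* (67563 to 265851) and *Prl* (31498 to 119783), the hormones of somatotrophs and lactotrophs, were abundant in every library. *Gh* was above *Pomc* in every library except pools 1 and 2 at 1 week, and *Prl* was above *Pomc* in every DEX and every 4 week pool. The levels below are those of this mixture and not of corticotrophs alone. In this bulk RNA, fewer cells of a type and less RNA per cell cannot be told apart.

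The upstream sequences of the granins and *Ptprn* whose pools separated between groups are shown first, because several promoters of this family are known targets of cAMP signalling, the route by which CRH acts on corticotrophs. RefSeq (GRCm38.p6) gave 9 promoters for 8 of the 9 members and none for *Vgf*. *Ptprn* has 2 of them, of which the upstream one is printed. The 150 bases before the annotated start are printed 5′ to 3′, with the cAMP response element core TGACG, or its reverse complement CGTCA, in capitals.

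Chga promoter, chr12:102554791-102554940, plus strand: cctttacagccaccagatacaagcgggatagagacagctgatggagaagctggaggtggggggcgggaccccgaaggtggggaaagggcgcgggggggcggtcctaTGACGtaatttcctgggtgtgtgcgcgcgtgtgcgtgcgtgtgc
Chgb promoter, chr2:132781492-132781641, plus strand: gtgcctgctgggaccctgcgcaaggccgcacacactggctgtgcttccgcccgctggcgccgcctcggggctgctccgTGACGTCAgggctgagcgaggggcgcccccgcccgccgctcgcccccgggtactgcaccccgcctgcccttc
Scg2 promoter, chr1:79440027-79440176, minus strand: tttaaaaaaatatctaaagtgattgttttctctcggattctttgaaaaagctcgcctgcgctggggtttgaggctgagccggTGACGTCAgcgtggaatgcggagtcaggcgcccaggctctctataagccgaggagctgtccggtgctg
Scg3 promoter, chr9:75684057-75684206, minus strand: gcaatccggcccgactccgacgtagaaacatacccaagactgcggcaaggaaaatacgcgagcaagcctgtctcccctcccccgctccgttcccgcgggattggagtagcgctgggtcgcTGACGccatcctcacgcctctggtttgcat
Ptprn promoter, chr1:75264209-75264358, minus strand: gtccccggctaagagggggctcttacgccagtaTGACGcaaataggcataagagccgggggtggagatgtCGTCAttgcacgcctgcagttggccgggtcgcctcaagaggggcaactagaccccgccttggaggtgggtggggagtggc

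The complete element TGACGTCA lay 72 bases before the start in *Chgb* and 68 bases before it in *Scg2*, and was present in 1.79% of all 32851 mouse promoters of the same length (250 bases before to 50 after the start, both strands). The shorter TGACG, which the complete element contains, was found in *Chga* (44 bases before the start), *Chgb*, *Scg2*, *Scg3* (30 bases) and *Ptprn* (117 and 80 bases), and in 20.8% of all promoters. The other *Ptprn* promoter, chr1:75263772-75263921 on the minus strand, held no TGACG in its 150 bases. *Ptprn2*, *Cadps* and *Cadps2* had neither. The glucocorticoid receptor pattern GNACANNNTGTNC, where N is any base, had no match in the 8 members and was present in 0.475% of all promoters. TATAAA (13.6%) was found in *Chga* alone, from base 6 after the RefSeq start, where GENCODE places the start 28 bases further downstream. GENCODE also places the first start of *Chgb*, *Scg2* and *Ptprn* upstream of the one used here, by 364, 94 and 294 bases. These matches are descriptions of sequence, and binding was not measured.

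Per kilobase of annotated exon, the granins *Scg2* and *Chgb* were the most abundant members. The *Scg2* level was 1359 ± 181 normalised counts per kb in control (SD, n = 3 pools) and the *Chgb* level was 848 ± 370.5. *Chga* followed at 237 ± 26.5, *Scg3* at 92.0 ± 6.66, *Ptprn* at 67.7 ± 41.5 and *Vgf* at 24.8 ± 11.8. *Cadps2* (6.96 ± 1.68), *Ptprn2* (6.04 ± 2.65) and *Cadps* (0.876 ± 0.724) were the lowest. Among neighbours in this order, the control pools of *Scg2* and *Chgb*, of *Scg3* and *Ptprn*, of *Ptprn* and *Vgf* and of *Cadps2* and *Ptprn2* overlapped. The normalised counts given from here on are not divided by length and are compared only within a gene.

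**Figure D1:**
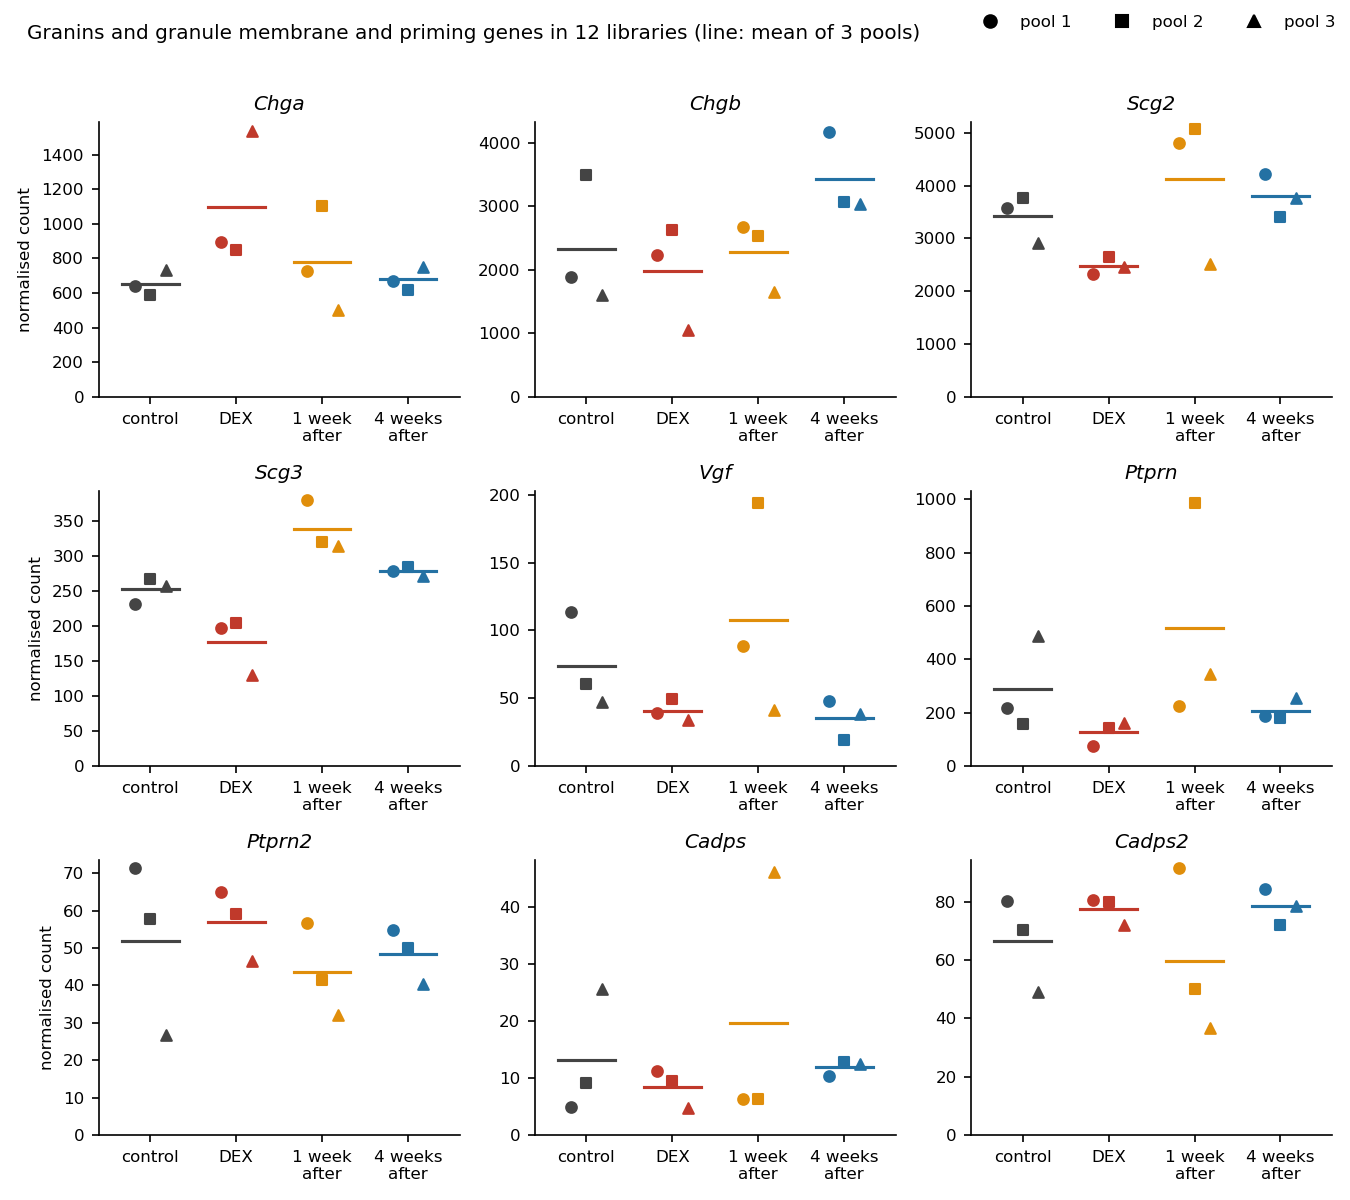
Normalised counts of the 9 members in each of the 12 libraries, one panel per gene with a linear axis from 0, pools by marker shape and the mean of 3 pools as a line. *Scg3* is the only panel in which the 4 groups are fully apart, and *Ptprn*, *Vgf* and *Cadps* each have a single pool far above the others of its group at 1 week following withdrawal.

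*Scg3*, which encodes secretogranin III, a granin that links chromogranin A aggregates to the granule membrane, ordered the 4 groups without any overlap. Its normalised counts were 232, 267 and 257 in the control pools, 197, 204 and 129 under DEX, 379.5, 319 and 314 at 1 week and 278, 284 and 271 at 4 weeks following withdrawal. The DEX pools were the lowest, then control, then 4 weeks and then 1 week following withdrawal. The means were 177 ± 41.2 under DEX, 252 ± 18.2 in control, 337 ± 36.7 at 1 week and 278 ± 6.5 at 4 weeks following withdrawal (SD, n = 3 pools). Full separation of all 4 groups was seen in 5 of the 24736 genes tested (0.0202%), but the control and 4 week pools were only narrowly apart. As a share of reads on genes, without the scaling to effective library size, this separation was lost. Pool 2 at 1 week (2501 of 11171892 reads) then lay below DEX pool 1 (2378 of 9948026), and the control and 4 week pools overlapped.

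Differences were tested with limma on log2(value + 0.1), and a call needed an adjusted p under 0.05 over all 24736 genes. The largest *Scg3* difference was between 1 week following withdrawal and DEX, a log2 fold change of 0.96 ± 0.24 (SE) with a 95% interval of 0.45 to 1.46, or 1.94-fold. It did not pass the threshold over all genes (limma, adjusted p = 0.091), and was 1.01 without pool 3 of control and pool 3 at 1 week. Against control, DEX pools were 1.45-fold lower, with a log2 fold change of -0.54 ± 0.24 and an interval of -1.05 to -0.03 (limma, adjusted p = 0.701), and the value was -0.33 without DEX pool 3. At 4 weeks following withdrawal *Scg3* was 1.6-fold above DEX (limma, adjusted p = 0.267) and 1.1-fold above control (adjusted p = 0.959). Over the 4 groups the F test did not pass either (limma, adjusted p = 0.272). Across the 12 libraries the genes most like *Scg3* in pattern were *Slc6a6* (Pearson r = 0.939), *Klhl32* (0.921) and *Nucb2* (0.92), among 9539 genes with a mean of at least 10.

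*Scg2*, the precursor of secretoneurin, shared the low DEX values. It had 3577, 3771 and 2906 normalised counts in control, 2327, 2656 and 2467 under DEX, 4802, 5064 and 2512 at 1 week and 4222, 3414 and 3756 at 4 weeks following withdrawal. All DEX pools were below all control pools and below all pools at 4 weeks, while pool 3 at 1 week lay inside the DEX range. As a share of reads on genes, the separation from 4 weeks was kept and that from control was lost. Pool 3 of control (26723 of 10002819 reads) then lay below DEX pool 1 (28095 of 9948026). On the log2 scale the differences were -0.45 ± 0.42 for DEX against control, 0.67 ± 0.42 for 1 week against DEX and 0.61 ± 0.42 for 4 weeks against DEX. None passed (limma, adjusted p = 0.891, 0.616 and 0.739), and the second was 0.99 without pool 3 at 1 week. The control, 1 week and 4 week groups overlapped one another. Its nearest genes in pattern were *Tuba4a* (r = 0.926), *Tor3a* (0.919) and *Syt13* (0.913).

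*Chga*, which encodes chromogranin A, differed in the opposite direction under DEX. Normalised counts were 643, 588 and 732 in control, 898, 852 and 1537 under DEX, 729, 1103 and 504 at 1 week and 667, 617 and 753 at 4 weeks following withdrawal. Every DEX pool was above every control pool and every pool at 4 weeks, and the 1 week pools spread across all of them. The log2 fold change for DEX against control was 0.70 ± 0.34, or 1.62-fold, with an interval of -0.02 to 1.41 (limma, adjusted p = 0.741), and was 0.42 without DEX pool 3, which was the highest library. *Tbx19* and *Avpr1b* were also higher in every DEX pool than in any control pool. They had their highest value in the same DEX pool 3 and their lowest in pool 3 at 1 week, as *Chga* did. Other corticotroph markers did not share this. *Pomc* was lower in every DEX pool than in any control pool, and *Crhr1* was 52.7, 59.2 and 138 under DEX against 189, 95.2 and 85.5 in control. The remaining markers of this list, *Neurod1* and *Nr3c1*, are not reported here. The part of these markers in the *Chga* level was not tested. At 4 weeks it lay 0.05 ± 0.34 from control, with an interval of -0.66 to 0.77. The genes nearest to *Chga* in pattern were *Nit1* (r = 0.968), *Pnpla2* (0.938) and *Ubac2* (0.938).

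*Chgb*, the chromogranin B gene, was highest at 4 weeks following withdrawal. Its normalised counts were 1885, 3485 and 1603 in control, 2233, 2632 and 1059 under DEX, 2674, 2538 and 1649.5 at 1 week and 4168, 3069.9 and 3027 at 4 weeks. The 4 week pools lay above all DEX and all 1 week pools, but pool 2 of control exceeded 2 of them. As a share of reads on genes, this separation was lost. Pool 3 at 4 weeks (33544 of 12848078 reads) then lay below DEX pool 2 (32197 of 10452188) and pool 1 at 1 week (28135 of 10465823). At 4 weeks the log2 fold change was 0.88 ± 0.45 against DEX (interval -0.08 to 1.84), 0.60 ± 0.45 against 1 week and 0.63 ± 0.45 against control. None passed (limma, adjusted p = 0.567, 1 and 0.875). Single libraries moved these values, to 0.48 against DEX without DEX pool 3, to 0.38 against 1 week without pool 3 at 1 week, and to 0.96 or 0.40 against control without pool 2 or pool 3 of control. The nearest genes in pattern were *Glra2* (r = 0.906), *Ccdc149* (0.889) and *Nedd9* (0.868). Markers of other cells also differed between the groups. The summed level of 6 endothelial markers was 76.0 to 145 at 4 weeks, 3.15 to 9.32 under DEX, 6.77 to 64.0 in control and 24.9 to 163 at 1 week, and that of 3 thyrotroph markers was 462 to 728, 50.7 to 263, 127 to 282 and 137 to 317 in the same order. The 5 somatotroph markers summed to 152302 to 267861 at 4 weeks against 68962 to 105833 under DEX, with 80149.7 to 223548 in control and 93246 to 222928 at 1 week. The 4 lactotroph markers summed to 86966 to 120202 against 48690.4 to 73849, with 31896 to 79171 in control and 44014 to 112157 at 1 week. The 5 gonadotroph markers summed to 5196 to 6616 against 1279 to 4073, with 3203 to 7768 in control and 3856 to 4498 at 1 week, and the 6 stem and folliculostellate markers to 169 to 222 against 84.8 to 100.8, with 80.3 to 171 in control and 72.8 to 128 at 1 week. Every 4 week pool was above every DEX pool in the sums of all 6 of these lists, and also of the corticotroph, melanotroph, pericyte and fibroblast, macrophage and erythroid lists. The sum of 10 activity-regulated genes, *Fos* among them, went the other way, at 14117 to 14886 against 17320 to 25192 under DEX. As a share of reads on genes, *Prl* in pool 2 at 4 weeks (788687 of 9653421 reads) lay below *Prl* in DEX pool 2 (896769 of 10452188). The corticotroph sum was almost all *Pomc* (48189 of 48441 in the lowest 4 week pool). *Tbx19* and *Avpr1b* went the other way and were lower in every 4 week pool than in every DEX pool. *Crhr1* overlapped between these groups. *Gh*, *Prl* and *Cga* made up most of the somatotroph, lactotroph and gonadotroph sums. Apart from 1 gonadotroph marker at 1 week, no marker of these lists was at 0 in all pools of a group, and their part in the *Chgb* level was not tested.

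*Vgf*, a neuroendocrine gene whose product yields several peptides, varied most between pools among the granins. Normalised counts were 114, 60.2 and 47.5 in control, 39.3, 49.1 and 34.2 under DEX, 88.3, 194 and 41.4 at 1 week and 48.0, 19.5 and 38.0 at 4 weeks following withdrawal. No pair of groups was free of overlap, and pool 2 at 1 week, which also had the highest *Pomc*, was the highest of the 12. Log2 fold changes were 1.14 ± 0.48 for 1 week against DEX, -1.44 ± 0.48 for 4 weeks against 1 week and -1.06 ± 0.48 for 4 weeks against control. None passed (limma, adjusted p = 0.379, 0.713 and 0.767), nor did the F test (limma, adjusted p = 0.452). Without pool 2 at 1 week, the first of these was 0.58 and the second -0.88, and the third was -0.70 without pool 1 of control and -0.69 without pool 2 at 4 weeks. *Dph3* (r = 0.902), *Tnfrsf12a* (0.887) and *Creb3l2* (0.85) were nearest in pattern.

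**Figure D2:**
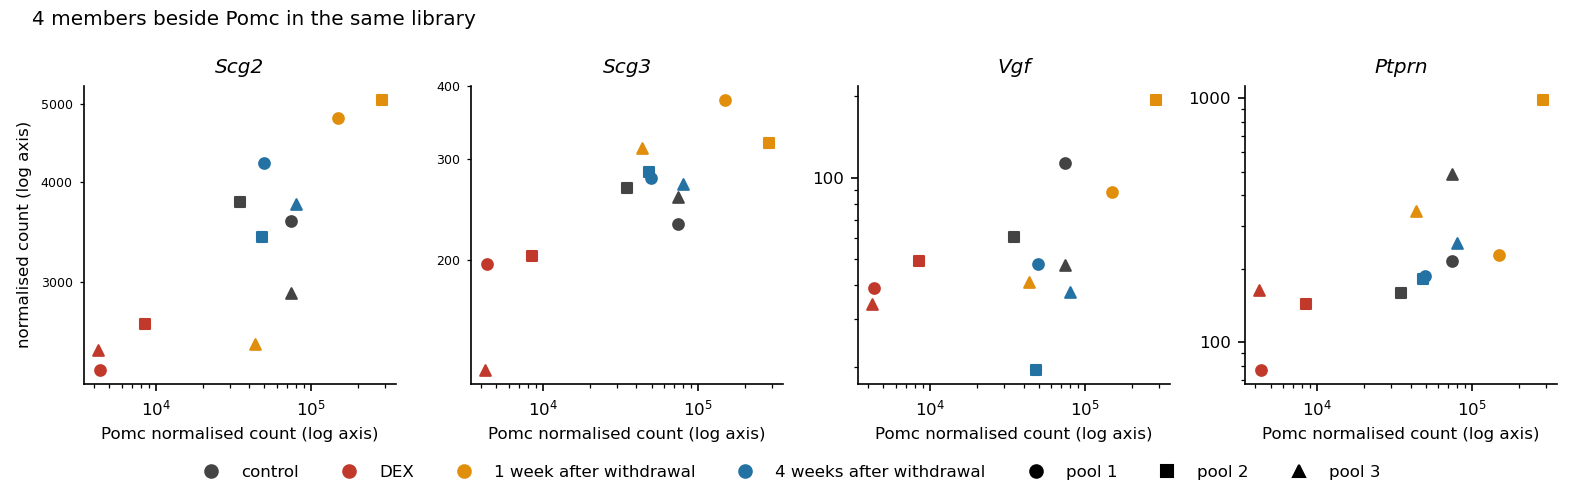
*Scg2*, *Scg3*, *Vgf* and *Ptprn* against *Pomc* in the same library, both axes logarithmic and in normalised counts, groups by colour and pools by marker shape. The DEX pools sit at the left of every panel with *Pomc* between 4241 and 8521, and pool 2 at 1 week following withdrawal, with *Pomc* at 284740.0, is the highest point for *Scg2*, *Vgf* and *Ptprn* but not for *Scg3*.

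*Ptprn*, which encodes the granule membrane protein IA-2, had the largest difference between groups of all members. Its normalised counts were 216, 159 and 488 in control, 76.8, 143 and 163 under DEX, 227, 986 and 344 at 1 week and 186, 181 and 254 at 4 weeks following withdrawal. Every pool at 1 and at 4 weeks was above every DEX pool, while pool 2 of control lay within the DEX range. As a share of reads on genes, pool 2 at 4 weeks (1653 of 9653421 reads) lay below DEX pool 3 (1453 of 8323298). The log2 fold change for 1 week against DEX was 1.81 ± 0.49, or 3.5-fold, with an interval of 0.77 to 2.85, and did not pass (limma, adjusted p = 0.121). Without pool 2 at 1 week it was 1.2 (adjusted p = 0.258). For DEX against control it was -1.07 ± 0.49, or 2.1-fold lower (limma, adjusted p = 0.712), and -0.61 without pool 3 of control. The F test did not pass (limma, adjusted p = 0.364).

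The gene nearest to *Ptprn* in pattern was *Gm28294* (r = 0.978), an antisense gene annotated inside the *Ptprn* locus. *Ptprn* spans chr1:75247027-75264502 on the minus strand and *Gm28294* spans chr1:75252322-75257427 on the plus strand (GENCODE, GRCm38). *Gm28294* had 28.5, 19.1 and 48.9 normalised counts in control, 9.44, 21.7 and 25 under DEX, 33.1, 145 and 37.7 at 1 week and 22.2, 25.2 and 34.6 at 4 weeks, 13.2% of the *Ptprn* mean. Counting was set to 1 strand, but the amplification kit does not mark strand, so that reads of the pair cannot be told apart where they overlap. *Cope* (r = 0.949) came next.

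*Ptprn2*, which encodes the related protein phogrin, showed no separation of groups. It had 71.3, 57.7 and 26.9 normalised counts in control, 64.9, 59.2 and 46.4 under DEX, 56.7, 41.5 and 32.1 at 1 week and 54.7, 50.02 and 40.2 at 4 weeks following withdrawal. Each group overlapped every other. The log2 fold change for DEX against control was 0.23 with an interval of -0.47 to 0.93 (-0.19 without pool 3 of control), and that for 1 week against DEX was -0.41 with an interval of -1.12 to 0.29. *Cul1* (r = 0.98), *Washc2* (0.97) and *Atf2* (0.965) were nearest in pattern.

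*Cadps* was the lowest member, and its spread was set by 2 pools. The normalised counts were 4.96, 9.07 and 25.6 in control, 11.3, 9.40 and 4.82 under DEX, 6.37, 6.37 and 46.1 at 1 week and 10.3, 12.8 and 12.4 at 4 weeks following withdrawal. Pool 3 of control and pool 3 at 1 week stood above the other 10 libraries, whose highest value was 12.8. The log2 fold change for 1 week against DEX was 0.62 ± 0.67, and -0.32 without these 2 pools. *Gm48267*, annotated inside the *Cadps* locus on the same strand, was also highest there, at 2.39 and 6.23. *Osbp* (r = 0.979), *Pcsk6* (0.953) and *Igf1r* (0.951) were nearest to *Cadps* in pattern.

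*Cadps2*, its paralogue, had 80.3, 70.4 and 48.9 normalised counts in control, 80.7, 80.0 and 72.0 under DEX, 91.5, 50.2 and 36.8 at 1 week and 84.4, 72.0 and 78.6 at 4 weeks following withdrawal. It was lowest in the same 2 pools in which *Cadps* was highest, and so was *Ptprn2*. No pair of groups was free of overlap. The log2 fold change for DEX against control was 0.25 with an interval of -0.39 to 0.88, and that for 4 weeks against 1 week was 0.50 with an interval of -0.14 to 1.13. Without pool 3 of control the first was 0.04, and without pool 3 at 1 week the second was 0.21. *Gm47484* (r = 0.933), *Mapk9* (0.925) and *Ocln* (0.924) were nearest in pattern.

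The question of the design was how far corticotroph transcripts follow DEX exposure and its withdrawal. Under DEX, 6 of 9 members lay below control on average and 3 above, with a median log2 fold change of -0.39 against -0.02 over all genes. At 1 week following withdrawal 6 members lay above DEX, with a median of 0.62 against 0.03 over all genes, and at 4 weeks 6 lay above DEX, with a median of 0.55 against 0.00. At 1 week 7 members and at 4 weeks 6 members lay above control, with medians of 0.21 and 0.14. These comparisons share the DEX pools or the control pools, so their medians are not separate pieces of evidence. The medians of -0.39, 0.62 and 0.55 were each the value of *Cadps*, the lowest member, whose spread was set by 2 pools. Its DEX against control value was 0.25 without pool 3 of control, and its 1 week against DEX value was -0.32 without both pools.

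No member passed the F test over the 4 groups at an adjusted p of 0.05 (limma), where 0.315% of all genes did. The edgeR quasi-likelihood test also called none, against 0.639% of all genes. Likewise no member passed in DEX against control (0.121% of all genes), 1 week against control (0%), 4 weeks against control (0%), 1 week against DEX (0.433%), 4 weeks against DEX (0.873%) or 4 weeks against 1 week (0%). At an unadjusted p under 0.05, the F test took *Scg3*, *Ptprn* and *Vgf* (9.21% of all genes). The comparisons took *Scg3* and *Ptprn* in DEX against control (6.8%), none in 1 week against control (3.79%), *Vgf* in 4 weeks against control (6.35%), *Scg3*, *Ptprn* and *Vgf* in 1 week against DEX (10.8%), *Scg3* in 4 weeks against DEX (9.94%) and *Vgf* and *Ptprn* in 4 weeks against 1 week (5.47%).

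**Figure D3:**
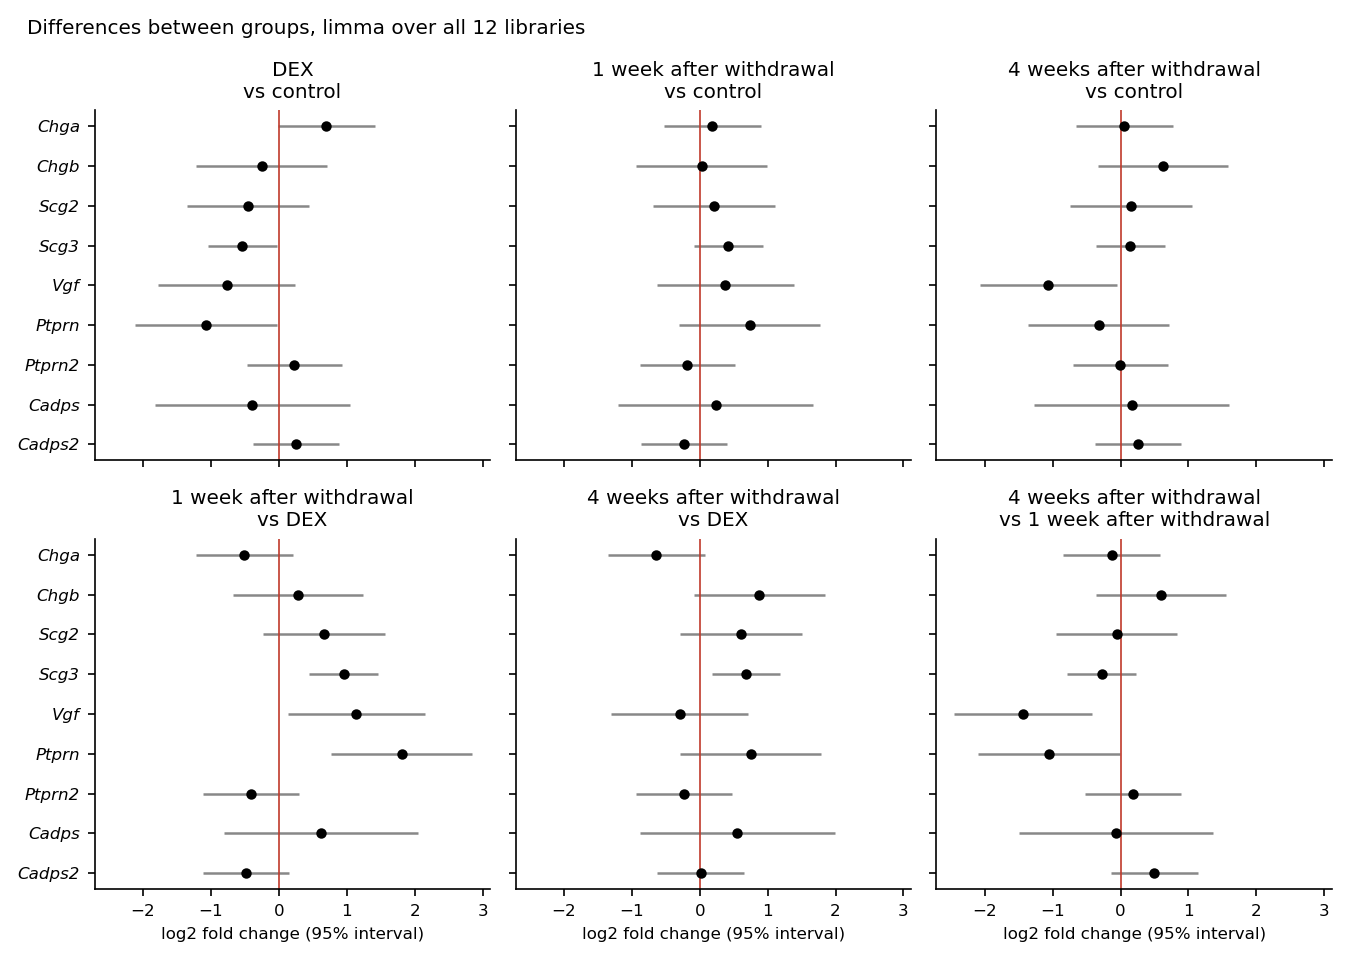
Log2 fold changes of the 9 members in each of the 6 comparisons (limma over 12 libraries, points) with 95% intervals (bars), and a line at 0. In 1 week following withdrawal against DEX the intervals of *Scg3*, *Vgf* and *Ptprn* lie above 0, and none of these passed the adjusted threshold.

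The normalised counts of some members did not overlap between groups. In DEX against control this held for *Chga* (higher), *Scg2* and *Scg3* (lower), 3 of 9 members against 12.8% of all genes. It held for *Scg3* in 1 week against control (6.08% of all genes) and in 4 weeks against control (13.2%). In 1 week against DEX it held for *Scg3* and *Ptprn* (13.8%). In 4 weeks against DEX it held for 5 members, *Chgb*, *Scg2*, *Scg3* and *Ptprn* (higher) and *Chga* (lower), against 19.5% of all genes. In 4 weeks against 1 week it held for *Chgb* (higher) and *Scg3* (lower), against 8.92%. As a share of reads on genes, without the scaling to effective library size, fewer of these stayed apart. They were *Chga* in DEX against control, *Ptprn* in 1 week against DEX, and *Scg2* and *Chga* in 4 weeks against DEX. The matching share of all genes without this scaling was not computed.

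Other tests called some members. With array weights, limma called *Scg3* and *Vgf* in the F test (4.32% of all genes) and *Scg3* in 1 week against DEX (2.29%). The edgeR likelihood ratio test called *Vgf* and *Ptprn* in the F test (4.18%), in 1 week against DEX (2.85%) and in 4 weeks against 1 week (0.651%). DESeq2 called *Scg3* and *Ptprn* in the F test over groups (2.97%) and in 1 week against DEX (2.32%).

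Ratios of paired members within a library do not depend on how libraries are scaled. *Chgb* to *Chga* was 2.93, 5.93 and 2.19 in control, 2.49, 3.09 and 0.689 under DEX, 3.67, 2.30 and 3.27 at 1 week and 6.25, 4.98 and 4.02 at 4 weeks following withdrawal. The 4 week pools were above all DEX and all 1 week pools and overlapped control. Their order against DEX was fixed by the levels above, where *Chgb* was higher and *Chga* lower in every 4 week pool. *Ptprn2* to *Ptprn* was 0.330, 0.364 and 0.055 in control, 0.846, 0.413 and 0.285 under DEX, 0.250, 0.0421 and 0.0933 at 1 week and 0.293, 0.276 and 0.158 at 4 weeks. The DEX pools were above all 1 week pools and overlapped both other groups. *Cadps2* to *Cadps* was 16.2, 7.77 and 1.91 in control, 7.16, 8.51 and 14.9 under DEX, 14.4, 7.88 and 0.798 at 1 week and 8.16, 5.62 and 6.36 at 4 weeks, and no group stood apart. *Scg3* to *Chga*, a pair chosen after its values were seen, was 0.360, 0.454 and 0.351 in control, 0.219, 0.239 and 0.0841 under DEX, 0.521, 0.289 and 0.622 at 1 week and 0.417, 0.460 and 0.360 at 4 weeks. All DEX pools had the lowest *Scg3* to *Chga* ratios of the 12 libraries. Against control and 4 weeks this order was fixed by the levels above, since each DEX pool was lower in *Scg3* and higher in *Chga*.

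**Figure D4:**
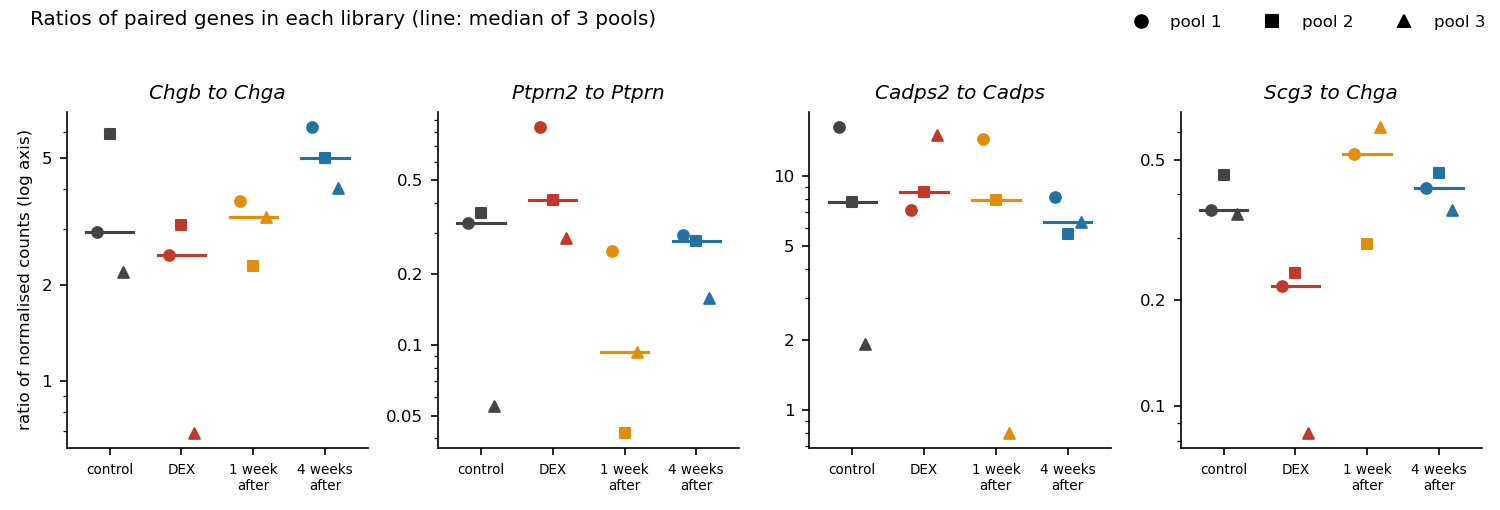
Ratios of normalised counts of paired members in each library on logarithmic axes, pools by marker shape and the median of 3 pools as a line. *Scg3* to *Chga* is lowest in the 3 DEX pools (0.0841 to 0.239), and *Cadps2* to *Cadps* is lowest in pool 3 of control (1.91) and pool 3 at 1 week following withdrawal (0.798).

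Wider lists of granule genes were read beside the members. Of 20 genes for granule cargo and its processing 19 were tested, and of 34 genes for granule biogenesis and trafficking and 30 for docking, priming and fusion all were. None passed the F test. The cargo list had a median log2 fold change of 0.01 in DEX against control and 0.32 in 1 week against DEX, the biogenesis list 0.06 and 0.01, and the fusion list -0.09 and -0.17, beside -0.02 and 0.03 over all genes. In 1 week against DEX 1 gene of the cargo list passed, and no gene of any list passed in the other comparisons.

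The gene that passed was *Nucb2*, the precursor of nesfatin, which was named after its values were seen. It had 112, 121 and 122 normalised counts in control, 95.3, 86.7 and 73.6 under DEX, 195, 201 and 154 at 1 week and 120.4, 122 and 129 at 4 weeks following withdrawal. It rose by 1.11 ± 0.21 on the log2 scale from DEX to 1 week (limma, adjusted p = 0.0303). It passed under 16 of 27 alternative settings, over which its adjusted p ranged from 6.44e-07 to 0.298.

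**Figure D5:**
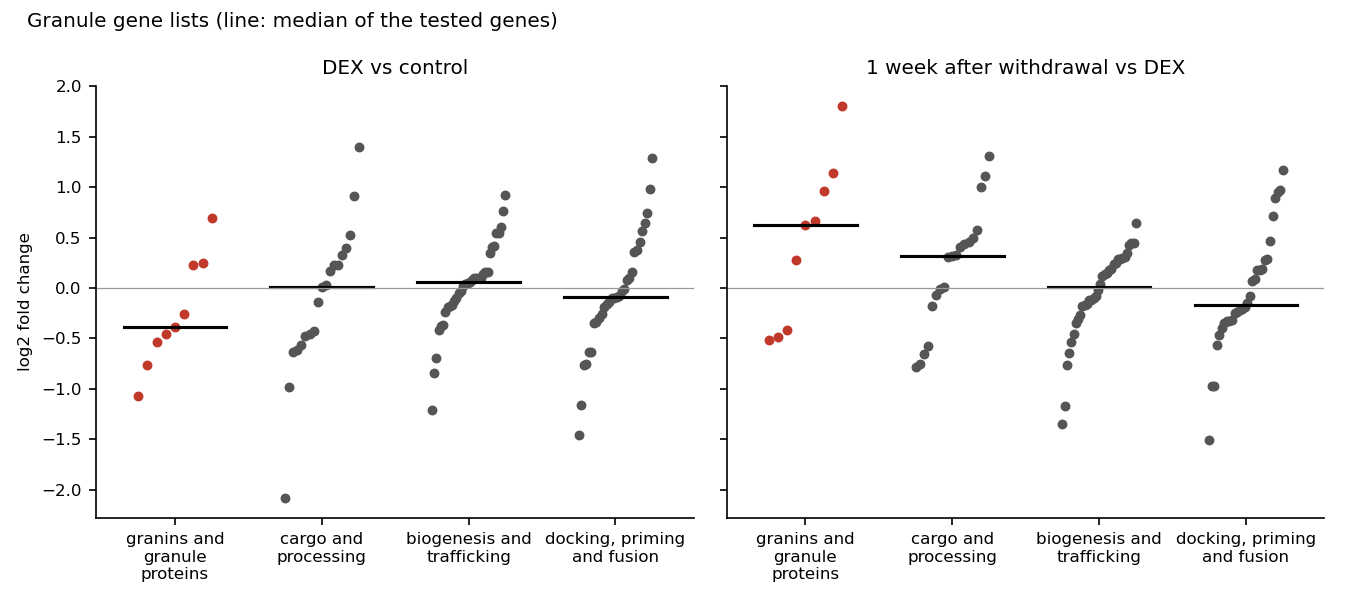
Log2 fold changes of the members (red) and of the tested genes of 3 granule lists (grey) in DEX against control and in 1 week following withdrawal against DEX, each gene a point, sorted within its list, with the list median as a line. The members have medians of -0.39 and 0.62, each the value of *Cadps*, and the medians of the 3 lists lie between -0.17 and 0.32.

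Within the cargo list the largest differences between DEX and control among genes with a mean of at least 10 were in *Resp18*, a granule protein of neuroendocrine cells, *Gal*, the galanin precursor, and *Pcsk1n*, the precursor of an inhibitor of prohormone convertase. Their log2 fold changes were -0.98 ± 0.31, 0.92 ± 0.48 and -0.63 ± 0.39 (limma, adjusted p = 0.403, 0.78 and 0.829). *Gal* was at 0.55 without DEX pool 1 and *Pcsk1n* at -0.21 without pool 3 of control. *Resp18* had 608, 592 and 949.8 normalised counts in control, 251, 404 and 437 under DEX, 924, 1022 and 710.1 at 1 week and 628, 584 and 802 at 4 weeks. All its DEX pools were below every other pool, but it was named for its difference between DEX and control. Of all genes, 12.8% did not overlap between DEX and control, 13.8% between DEX and 1 week and 19.5% between DEX and 4 weeks.

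In the biogenesis list the largest were *Phactr1* (-1.2 ± 0.28), the small GTPase *Rab27b* (0.92 ± 0.44), which tethers granules, and *Rab3b* (-0.84 ± 0.29), which acts at the same step (limma, adjusted p = 0.138, 0.736 and 0.463). Without pool 3 of control *Rab27b* was at 0.51. In the fusion list they were the complexin gene *Cplx2* (-1.16 ± 0.49), and the calcium sensors *Syt7* (-0.76 ± 0.69) and *Syt5* (-0.75 ± 0.28) (limma, adjusted p = 0.685, 0.891 and 0.573). *Cplx2* was 30.1, 46.2 and 122 in control and 24.1, 36.1 and 17.4 under DEX, and *Syt7* was 9.91, 16.4 and 68.6 in control and 16.0, 16.4 and 8.63 under DEX. Pool 3 of control was the highest control pool of both, and without it the log2 fold changes were -0.59 for *Cplx2* and 0.04 for *Syt7*. *Rab3b* was 346, 303 and 388 in control and 147, 177 and 269 under DEX. *Syt5* was 65.1, 54.3 and 62.3 in control and 30.3, 31.1 and 49.1 under DEX. In both genes, which were named for the size of this difference, all DEX pools lay below all control pools. These 2 groups did not overlap in 12.8% of all genes.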

How the data were processed

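RNA of sorted *Pomc*-eGFP cells was measured in 12 libraries, 3 pools in each of 4 groups, grouped by the sample labels. Per the labels and the paper's methods, the authors amplified the RNA with the SMART-V4 kit, trimmed reads with Trim Galore 0.6.5, aligned them to GRCm38 with STAR 2.7.1a and counted them per gene with featureCounts 2.0.0, set to reverse strand. The deposited values are a normalised signal, CPM of the TMM-scaled library size as the authors computed it with edgeR. Recovered to reads, 100% of 271881 values above 0 were whole within 1e-06, with 7719894 to 12848078 reads per library. All columns belong to listed samples.

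Values were tested as log2(value + 0.1) for 24736 genes above 0.1 in at least 3 libraries with limma 3.58.1 (R 4.3.3, trend, all 12 libraries), by an F test over 3 contrasts with control and 6 pairwise contrasts, adjusted by Benjamini-Hochberg over all genes, with 0.05 as threshold. A fold change on this scale understates that of low genes. Alternatives used edgeR 4.0.16 and DESeq2 1.42.0 on the recovered reads. The limma step was tested on simulated data. The members, lists and rules were chosen with earlier results of these data known. Named from the lists were genes past the F test and the 3 largest DEX differences per list among genes with a mean of at least 10. Likeness was the Pearson correlation over 12 libraries, with the 3 nearest genes named per member, of which 1 is not reported here. The labels give 3 pituitaries per pool. Intervals cover the spread between pools, and RNA below the detection limit of the fluorometer was amplified without molecular identifiers.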

Additional observations from a re-analysis of the deposited data

How the results depend on the processing

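The count of members past the threshold was 0 in the main test of the F test and of all 6 comparisons, and it was also 0 with pseudocounts of 0.5 and 1, no filter or a filter at 1, median-ratio scaling, scaling without TMM, quantile normalisation, robust moderation, only the 2 groups compared, each library left out in turn (lowest 0 and highest 0), the edgeR quasi-likelihood test, and without pool 3 of control and pool 3 at 1 week, a setting added after the data were seen. It was 2 in the F test with array weights, with the edgeR likelihood ratio test and with DESeq2. In 1 week following withdrawal against DEX it was 1 with array weights, 2 with the likelihood ratio test and 2 with DESeq2, and in 4 weeks against 1 week it was 2 with the likelihood ratio test. The cause was not tested. In each other comparison these 3 settings called no member. Of 54 pairs of member and comparison, 31 kept the sign of their log2 fold change under all 27 alternatives, among them all 6 of *Scg3*. At its lowest the *Scg3* value for 4 weeks against control was only 2.76e-05. The other 23 pairs changed sign 67 times in all, and the largest of them was 0.62 in size (*Cadps* in 1 week against DEX). Under scaling without TMM the median log2 fold change of all genes was -0.29 in place of 0.03 in 1 week against DEX, -0.24 in place of 0.00 in 4 weeks against DEX, -0.19 in place of 0.00 in 1 week and -0.13 in place of 0.00 in 4 weeks against control, and 0.10 in place of -0.02 in DEX against control. Pool numbers were shared across groups, and the deviations of same-numbered pools correlated from -0.294 to 0.397. The highest was between pool 3 of control and pool 3 at 1 week. The labels do not say whether the numbers pair the pools, and these correlations cannot decide it. With the replicate block the F test called 0 members, and 85 in place of 78 of all genes. The lowest member had 43 reads in the library where it was lowest.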

Other observations

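Pool 3 of control and pool 3 at 1 week following withdrawal, in which *Cadps* was highest, were also the top 2 libraries for *Pam*, the peptide-amidating enzyme of granules, *Syt7* and *Cplx2*, 3 of the 70 genes of the granule lists with a mean of at least 10 (4.29%). The same held for 842 of all 9548 genes at that level (8.82%). *Syt7* had 68.6 and 84.9 normalised counts in these pools against 8.63 to 23.1 in the other 10, and *Cplx2* had 122 and 118 against 17.4 to 46.2. *Pam* had 349 and 373 against 99.3 to 318. These pools were picked after the *Cadps* values were seen, and the pattern was not tested.

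The summed normalised count of the 5 granins was 5545 to 8171 in control, 5226 to 6392 under DEX, 5021 to 9218 at 1 week and 7404 to 9383 at 4 weeks following withdrawal. Every 4 week pool was above every DEX pool in this sum. *Scg2* and *Chgb* contribute most to it, and each was already higher in every 4 week pool than in every DEX pool. As a share of reads on genes the order of the sum was lost, with DEX pool 2 above pools 2 and 3 at 4 weeks. Between members, the highest correlation over the 12 libraries was that of *Ptprn2* with *Cadps2* (r = 0.793), and the lowest was that of *Ptprn2* with *Cadps* (r = -0.690). The points share their libraries, so these are descriptions.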
